A study of Homo sapiens with 30 samples.

Results

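Ramos cells, a human Burkitt lymphoma line with a MYC translocation, were compared between 24 h and 6 h of treatment with 2.5 μM Omomyc. Omomyc is a miniprotein derived from the dimerization and DNA binding domain of MYC. The comparison rests on 6 of the 30 RNA-Seq libraries of the study, with 3 replicates per time, chosen by cell line, dose and time as their labels give them. The 3 libraries of untreated Ramos cells served as the background, and 6 libraries of Ramos cells given 500 nM Omomyc for 6 or 24 h served for a comparison of doses. The labels carry no time for the untreated cells, so hours in culture and hours with Omomyc cannot be told apart. For the libraries whose titles say 24 h another label tag says 4 h, and the titles were followed. How Omomyc was delivered to the Ramos cells is not given in the sources used here, and neither is whether the replicates were separate cultures, so p-values measure only the spread between these libraries. Total RNA was depleted of rRNA and sequenced with a strand-specific kit. Expression is given as RPKM, which divides reads by gene length and by sequencing depth. Of the 57992 genes of the table, 13564 had a mean RPKM of at least 0.5 over the 6 libraries and were tested.

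MYC binds DNA as a heterodimer with MAX at E boxes, with the core CACGTG, and drives genes for ribosome production, metabolism and cell division. MXD proteins and MNT pair with MAX at the same sites and repress. Burkitt cells resemble germinal center B cells, which carry a surface IgM receptor, present antigen on MHC class II and divide rapidly. Signals from the B cell receptor pass through calcium, ERK and NF-κB to immediate early genes and chemokines.

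Between 6 and 24 h, 3125 genes differed, which is 23.0% of those tested, at a Benjamini-Hochberg adjusted p under 0.05 in limma's moderated test on log2(RPKM + 0.5). Expression was higher at 24 h for 1720 genes (12.7%) and lower for 1405 genes (10.4%). The counts of list members given below are to be read beside these shares. Most differences were small. Of the genes called, 2664 (85.2%) changed by less than 0.5 on the log2 scale, and 47 changed by at least 1, of which 37 were higher and 10 lower at 24 h. The split depended on the scaling of the libraries. Rescaling every library to the same total RPKM gave 3095 calls, of which 77% were higher, against 55.0% as deposited. The share of higher genes was 49.5% with median-ratio scaling and 51.8% with quantile normalization. A single gene could not reach significance by an exact permutation test, since 3 libraries against 3 cannot give a two-sided p below 0.1.

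The library sums of RPKM ran from 783788 to 828045 at 24 h, from 832655 to 844605 at 6 h and from 879661 to 973736 in untreated cells. The 5 small structural RNA genes RN7SK, RN7SL2, RN7SL1, RPPH1 and RMRP took 31.9% to 35.9%, 35.7% to 36.3% and 41.0% to 45.8% of these sums. Their part in the results was not tested, other than by the scalings above. All 10 B cell and Burkitt markers were expressed, while the summed markers of T and NK cells, of myeloid cells and of epithelial cells each stayed at or below 1.86 RPKM. CD3D, CD2, CD8A, ITGAM, CD163, CDH1 and KRT20 were at 0 in all 6 libraries. Log2 values of replicates correlated with r of at least 0.992 at both times. The number of reads per library is unknown, so precision is judged from the spread of the 3 replicates.

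As deposited, genes that deviated from untreated cells at 6 h and moved back by 24 h outnumbered genes of other shapes. This order turned with an equal sum of RPKM. Against untreated cells, 3795 genes (27.9%) differed at 6 h, of which 2346 (17.3%) were higher and 1449 (10.7%) lower. At 24 h, 627 genes (4.61%) differed, of which 449 (3.30%) were higher and 178 (1.31%) lower. These comparisons share libraries with the 24 h versus 6 h comparison, so their overlap is a description and not evidence. Genes called at 6 h and called in the opposite direction from 6 to 24 h numbered 2112. Of these, 989 had been higher and 893 lower at 6 h and were no longer called on that side of untreated cells at 24 h, while 132 and 98 still were. Whether genes no longer called had reached the untreated level was not tested, and a missing call does not show it. A further 236 higher and 48 lower genes were called on 1 side at both times and not called as returning. Outside these classes, 40 genes were higher and 19 lower at 24 h than both at 6 h and in untreated cells. Of the 3767 genes called at 6 h and also tested between the times, 1371 fell in no class. They were called neither between the times nor at 24 h against untreated cells. The number called at 24 h against untreated cells depended on single libraries and on scaling. It fell to between 60 and 91 without any 1 of the 3 libraries of 24 h, and was 929 without untreated replicate 3. With an equal sum of RPKM it was 5365, with a shift of the median gene of 0.24, against 0.048 as deposited. At 6 h the same scaling shifted the median gene from 0.034 to 0.16, and differences from untreated cells are relative to these shifts. Under this scaling 1174 genes returned fully or in part, 3039 were called on 1 side of untreated cells at both times and 1164 were called in 1 direction at 24 h against both other groups. As deposited the same counts, in which a gene can enter more than once, were 2112, 514 and 65.

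All 12 coding genes with the largest rises from 6 to 24 h had been lower than in untreated cells at 6 h. Of them, 6 were still lower at 24 h. Among all 1720 genes that rose, 893 had been called lower at 6 h and no longer lower at 24 h. A further 98 were called lower at both times. The genes were chosen with the same 6 h libraries, so this count is a description. FCRL5 (ENSG00000143297), an Fc receptor-like protein of B cells, had 0.807, 0.820 and 0.470 RPKM at 6 h and 7.58, 6.51 and 6.38 RPKM at 24 h, while untreated cells had 15.6, 15.2 and 12.3 RPKM. All 24 h libraries lay above all 6 h libraries and below all untreated ones. The difference of log2(RPKM + 0.5) from 6 to 24 h was 2.62 ± 0.15 (SE, adjusted p = 2.1e-05). The ratio of the mean RPKM, without the added 0.5, was larger, at 9.76-fold. CCL3 (ENSG00000277632), a chemokine that B cells release on receptor engagement, had 1.11, 1.13 and 0.790 RPKM at 6 h, 4.91, 4.33 and 4.12 RPKM at 24 h and 20.9, 19.9 and 18.1 RPKM in untreated cells. It rose by 1.72 ± 0.13 (adjusted p = 7e-05) and at 24 h was still lower than in untreated cells by 2.02 on the log2 scale (adjusted p = 4.4e-05). CCL3 shares most of its sequence with CCL3L1, so the division of reads between them is uncertain.

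EGR2 (ENSG00000122877), a zinc finger factor of the immediate early response, had 5.29, 5.23 and 4.80 RPKM at 6 h, 14.7, 13.6 and 14.4 RPKM at 24 h and 32.7, 30.1 and 30.5 RPKM in untreated cells. It rose by 1.39 ± 0.07 (adjusted p = 1.1e-05), and the 3 groups did not overlap. CD274, which encodes the immune checkpoint ligand PD-L1, had 1.25, 2.62 and 2.56 RPKM at 6 h, 5.07, 4.78 and 5.43 RPKM at 24 h and 10.1, 8.39 and 8.95 RPKM in untreated cells. The 3 groups were again apart, replicate 1 at 6 h was the lowest library, and the rise was 1.13 ± 0.20 (adjusted p = 0.0041). CLEC17A, a lectin of B cells, followed the same order, with means of 3.85 ± 0.473 RPKM at 6 h, 9 ± 0.457 RPKM at 24 h and 15.7 ± 0.447 RPKM in untreated cells (SD, n = 3). ZEB2, a zinc finger repressor, rose by 1.43 ± 0.19, from between 0.825 and 1.83 RPKM to between 3.89 and 4.36 RPKM, and untreated cells had between 5.52 and 6.84 RPKM. Among genes of other types, MIR3142HG, which hosts the miR-146a precursor, had 7.95, 8.05 and 7.67 RPKM at 6 h, 17.9, 18.5 and 16.2 RPKM at 24 h and 26.8, 24.8 and 23.4 RPKM in untreated cells.

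Other genes with large rises did not pass the test against untreated cells at 24 h. PTPN6, the phosphatase SHP-1 that limits B cell receptor signals, had 19.0, 21.2 and 17.1 RPKM at 6 h, 44.0, 40.6 and 41.1 RPKM at 24 h and 49.1, 44.5 and 47.5 RPKM in untreated cells. The low 6 h libraries stood apart from the other groups. All 24 h libraries also lay below all untreated ones, by a difference of -0.16 that did not pass the test (adjusted p = 0.12). SPOCK2, a secreted proteoglycan, had 1.70, 1.70 and 1.67 RPKM at 6 h and 5.87, 4.89 and 6.04 RPKM at 24 h, against 6.85, 5.62 and 5.98 RPKM in untreated cells. The 24 h and untreated values overlapped. GPR174, a receptor for lysophosphatidylserine, rose by 1.08 ± 0.13, KCNN4, a calcium-activated potassium channel, by 1.03 ± 0.08, and FGD2, an exchange factor for CDC42, by 1.07 ± 0.08. S100A6, a calcium-binding protein, rose by 1.09 ± 0.14, from between 6.25 and 10.0 RPKM to between 17.1 and 20.0 RPKM, with 15.4 to 16.6 RPKM in untreated cells.

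**Figure D1:**
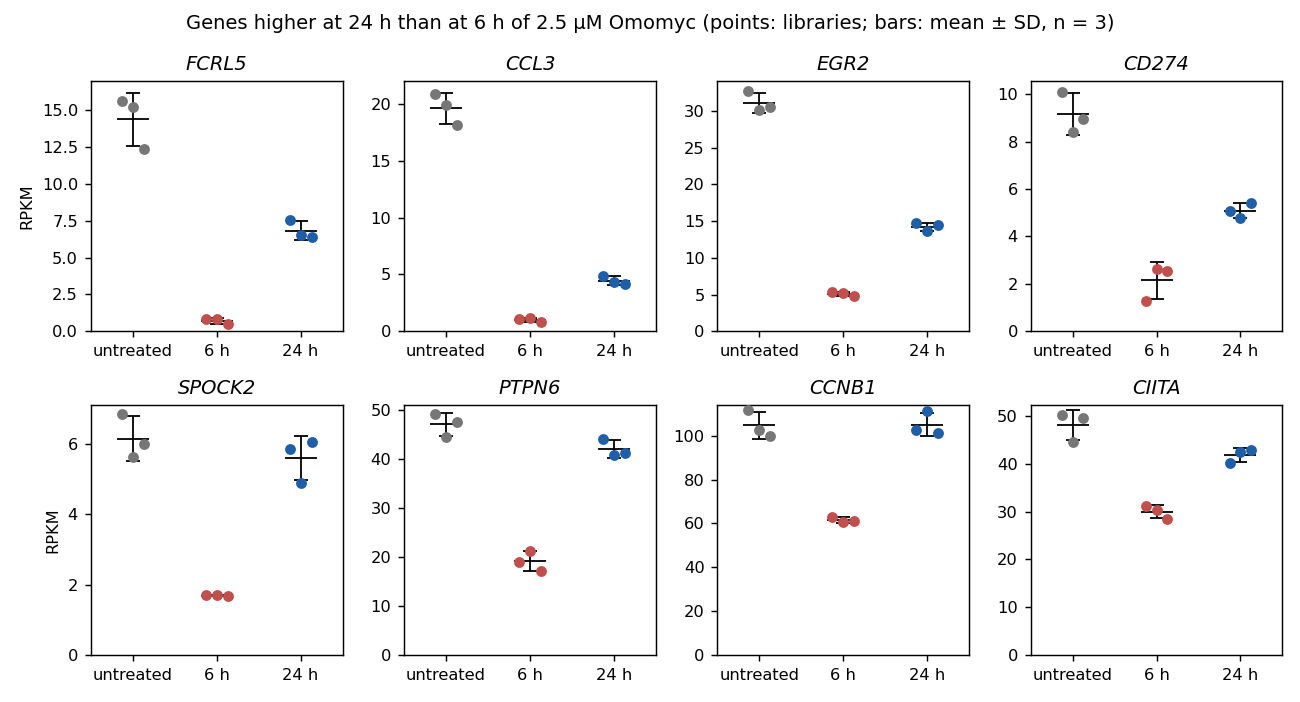
RPKM (vertical axes, linear, from 0) of 8 genes higher at 24 h than at 6 h of 2.5 μM Omomyc, in untreated, 6 h and 24 h cells, with 1 point per library and bars for the mean ± SD (n = 3). In each panel the 3 points of 24 h lie above the 3 points of 6 h. For FCRL5, CCL3, EGR2, CD274, PTPN6 and CIITA they also lie below the 3 untreated points, and for SPOCK2 and CCNB1 they overlap them.

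Of the 12 coding genes with the largest falls from 6 to 24 h, 11 were called higher than in untreated cells at 6 h, the exception being AC012254.2. Among all 1405 genes that fell, 989 had been called higher at 6 h and no longer higher at 24 h. A further 132 were called higher at both times. This count is a description too, since the 6 h libraries are shared. VPREB3 (ENSG00000128218), a protein that associates with newly made immunoglobulin μ chains, had 37.1, 38.2 and 39.0 RPKM at 6 h, 13.5, 15.6 and 16.0 RPKM at 24 h and 13.4, 16.9 and 15.1 RPKM in untreated cells. It fell by 1.32 on the log2 scale (SE 0.06, adjusted p = 1.1e-05), to values that overlapped those of untreated cells. NAPSA, an aspartic protease, had 26.9, 27.5 and 25.9 RPKM at 6 h, 11.1, 13.4 and 11.3 RPKM at 24 h and 13.3, 14.8 and 14.5 RPKM in untreated cells. The difference was -1.14 ± 0.07 (adjusted p = 2.7e-05), and the gene overlaps NR1H2 on the other strand. DERL3, which helps to move misfolded proteins out of the endoplasmic reticulum (ER), had 6.84, 6.80 and 6.72 RPKM at 6 h and 3.24, 3.57 and 2.81 RPKM at 24 h, and untreated cells had 3.15, 4.66 and 3.84 RPKM. SELPLG, the P-selectin ligand, fell by 0.94, SCX, a tendon factor whose gene overlaps BOP1, by 0.89, CSDC2, an RNA-binding protein, by 0.92 and LSP1, an actin-binding protein of leukocytes, by 0.78 on the log2 scale.

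S1PR2, a sphingosine phosphate receptor that holds germinal center B cells in place, had 41.6, 43.0 and 44.1 RPKM at 6 h, 23.2, 24.8 and 24.4 RPKM at 24 h and 20.6, 22.9 and 23.0 RPKM in untreated cells. The 6 h libraries were high and the other groups lay close together, with a difference from 6 to 24 h of -0.82 ± 0.04 (adjusted p = 1.8e-05). P2RY8, another receptor that confines germinal center B cells, fell by 0.41, and CXCR4, the receptor that guides B cells to the dark zone, by 0.35 on the log2 scale. AC012254.2, named by the same rule, was listed at 3.60, 3.85 and 4.26 RPKM at 6 h and at 0.708, 0.878 and 3.53 RPKM at 24 h, and its untreated replicate 3 had 0.0429 RPKM. Its difference from untreated cells at 6 h did not pass the test (adjusted p = 0.32), and its call between the times was lost under 9 of 16 settings.

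**Figure D2:**
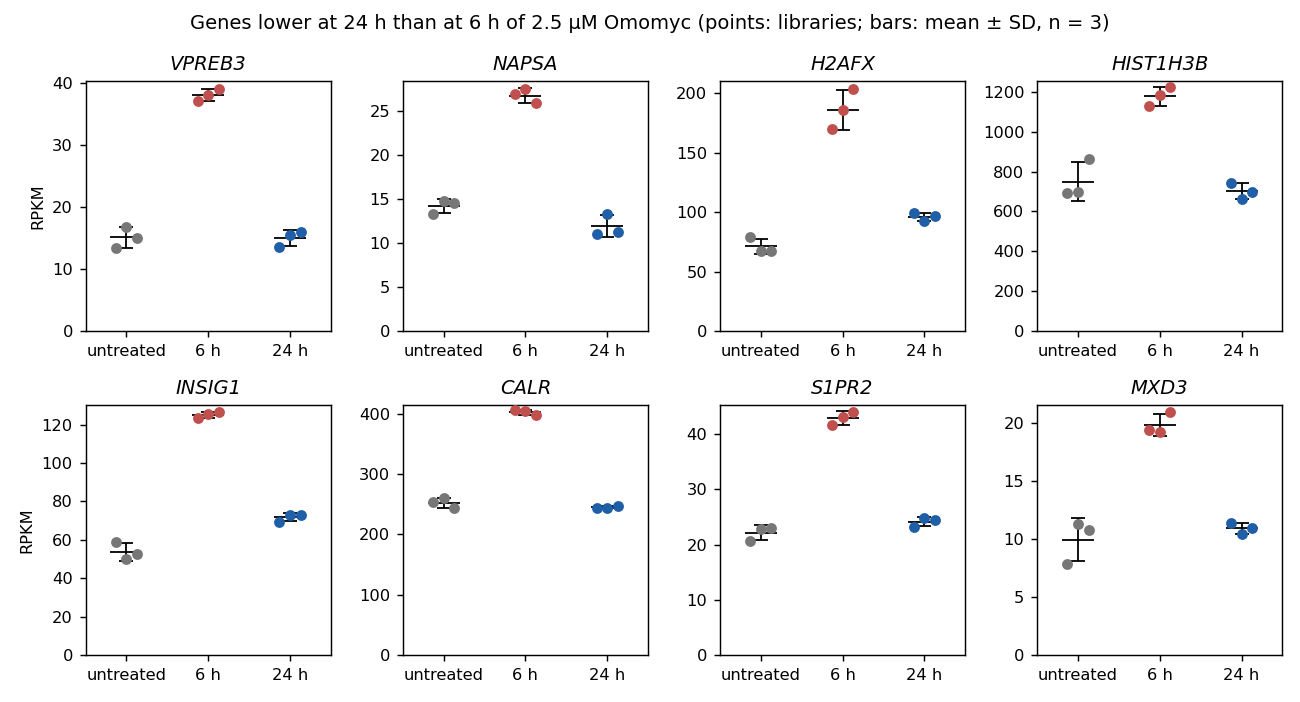
RPKM (vertical axes, linear, from 0) of 8 genes lower at 24 h than at 6 h of 2.5 μM Omomyc, in untreated, 6 h and 24 h cells, with 1 point per library and bars for the mean ± SD (n = 3). In each panel the 3 points of 6 h lie above those of 24 h and of untreated cells, and for VPREB3, for example, the 24 h mean of 15.03 RPKM is close to the untreated mean of 15.1 RPKM.

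Transcripts of the network that Omomyc belongs to changed little between the times. MYC had 174, 178 and 183 RPKM at 6 h, 162, 177 and 168 RPKM at 24 h and 131, 136 and 153 RPKM in untreated cells. The 2 treated groups overlapped, with a difference of -0.08 ± 0.04 (adjusted p = 0.18). Both stood above untreated cells, by 0.35 at 6 h (adjusted p = 0.0029) and by 0.27 at 24 h (adjusted p = 0.042). MAX had 24.4, 25.1 and 25.0 RPKM at 6 h and 21.4, 23.2 and 23.8 RPKM at 24 h, a difference that did not pass the test (-0.12 ± 0.05, adjusted p = 0.11). Of the 12 members tested, 0 rose and 2 fell, beside 12.7% and 10.4% of all genes tested. Their median was 0.0077, against 0.012 over all genes tested. MXD3, a MAX partner that represses, had 19.4, 19.2 and 20.9 RPKM at 6 h, 11.4, 10.4 and 11 RPKM at 24 h and 7.83, 11.3 and 10.8 RPKM in untreated cells, a change of -0.83 ± 0.06 (adjusted p = 3.6e-05). MNT fell by 0.32 (adjusted p = 0.049), and its call was lost under several other settings. The sign of the median turned under 2 of the scalings and on leaving out any 1 of 4 libraries, which were replicates 1 and 2 at 6 h and replicates 2 and 3 at 24 h.

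E boxes were counted in the 250 bases before the start of each gene in the RefSeq promoter table for GRCh38.p14, on both strands, with 1 window per gene. CACGTG was held by 6.49% of 27305 windows, by 9.41% of tested coding genes, by 9.08% of those higher at 24 h and by 10.4% of those lower. A match is a description of letters and not a binding site. The window of CENPF, a kinetochore protein whose RPKM went from 29.3, 29.6 and 30.0 at 6 h to 34.1, 35.8 and 36.8 at 24 h, holds 1 match, shown as an example in capitals (plus strand, 250 to 51 bases before the start, chr1:214602945-214603144).
CENPF: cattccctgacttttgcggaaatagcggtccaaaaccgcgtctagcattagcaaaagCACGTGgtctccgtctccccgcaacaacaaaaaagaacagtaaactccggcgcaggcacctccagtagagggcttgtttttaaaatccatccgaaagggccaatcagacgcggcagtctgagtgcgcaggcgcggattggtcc

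Sterol synthesis genes and targets of the transcription factor SREBP2 mostly fell, and no member rose. Of 22 members tested, 17 fell and 0 rose, with a median of -0.30. At 6 h 18 of them had been higher than in untreated cells (median 0.56), and at 24 h 12 were still higher (median 0.23). INSIG1, which retains the SREBP complex in the ER, had 123, 125 and 126 RPKM at 6 h, 69.5, 72.9 and 73.1 RPKM at 24 h and 58.6, 49.7 and 52.6 RPKM in untreated cells. The 3 groups did not overlap, and the fall was 0.80 on the log2 scale (SE 0.03, adjusted p = 5e-06), which left INSIG1 above untreated cells by 0.42 (adjusted p = 0.012). SQLE, the squalene epoxidase, had 45.6, 45.1 and 48.7 RPKM at 6 h, 32.1, 34.9 and 34.0 RPKM at 24 h and 27.9, 28.1 and 28.2 RPKM in untreated cells. SQLE kept the order of INSIG1, high at 6 h, lower at 24 h and lowest untreated, without overlap.

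Within the sterol pathway the falls ran through most steps. HMGCS1, which makes HMG-CoA, fell by 0.43, MVK, mevalonate kinase, by 0.44 and DHCR7, which makes cholesterol, by 0.45 on the log2 scale. MSMO1, a sterol methyl oxidase, had 42.9, 44.0 and 42.7 RPKM at 6 h, 33.7, 34.8 and 34.2 RPKM at 24 h and 30.7, 27.9 and 26.5 RPKM in untreated cells. PMVK (0.17, adjusted p = 0.13) and CYP51A1 (0.22, adjusted p = 0.060) had positive differences that did not pass the test. Of the 16 members with a promoter window, 13 held CCAAT, the box bound by NF-Y, against 33.0% of all windows and 36.7% of those of tested coding genes. TCACNCCAC, a form of the sterol element, was held by 1 of the 16, against 0.875% of all windows. The window of MSMO1 holds 3 matches on either strand, in capitals (plus strand, 250 to 51 bases before the start, chr4:165327419-165327618).
MSMO1: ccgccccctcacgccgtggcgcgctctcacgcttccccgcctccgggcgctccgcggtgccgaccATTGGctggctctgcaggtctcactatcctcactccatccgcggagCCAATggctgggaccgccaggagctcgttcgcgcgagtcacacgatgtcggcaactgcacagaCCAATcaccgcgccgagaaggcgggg

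Chaperones and stress genes of the ER mostly fell. Of 20 members tested, 14 fell and 1 rose, EDEM1, with a median of -0.26. At 6 h 13 had been higher than in untreated cells, and at 24 h 1 was higher and 1 lower. CALR, the calcium-binding chaperone calreticulin, had 406, 404 and 398 RPKM at 6 h, 245, 244 and 247 RPKM at 24 h and 253, 260.0 and 244 RPKM in untreated cells. It fell by 0.72 (SE 0.03, adjusted p = 3.6e-06), to values beside those of untreated cells. CRELD2, an ER protein of the stress response, fell by 0.75, SDF2L1, a cofactor of the chaperone BiP, by 0.63 and PDIA6, a disulfide isomerase, by 0.62 on the log2 scale. HSPA5, which encodes BiP itself, had 58.3, 54.4 and 52.9 RPKM at 6 h and 44.3, 47.8 and 45.6 RPKM at 24 h. XBP1, a factor of the unfolded protein response, did not pass the test (0.08, adjusted p = 0.20). The ER stress response element is CCAAT and CCACG with 9 bases between them. It was held by 22 of 27305 windows (0.0806%) and by 0.178% of those of tested coding genes. Of the 19 members with a window 6 held it, which were CALR, CANX, CRELD2, HSP90B1, HSPA5 and XBP1. Of these genes HSP90B1 and XBP1 did not pass the test between the times. In the CALR window the element lies on the reverse strand, in capitals (plus strand shown, 250 to 51 bases before the start, chr19:12938359-12938558), and every such element contains a CCAAT box.
CALR: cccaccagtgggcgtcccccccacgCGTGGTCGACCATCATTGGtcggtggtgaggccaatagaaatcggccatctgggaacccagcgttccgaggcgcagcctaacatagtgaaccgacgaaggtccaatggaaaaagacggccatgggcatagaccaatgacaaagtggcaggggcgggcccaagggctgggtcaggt

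A list of immunoglobulin constant genes also held JCHAIN and VPREB3, whose products associate with immunoglobulin chains. Of 6 members tested, IGHM, IGLC2, JCHAIN and VPREB3 fell and 0 rose, with a median of -0.34, and the call of IGLC2 was lost under 8 of 16 settings. IGHM, the μ heavy chain, had 4030.0, 4133 and 3796 RPKM at 6 h, 2755, 2841 and 2851 RPKM at 24 h and 2292, 2378 and 2723 RPKM in untreated cells. JCHAIN, which joins IgM subunits, had 2232, 2046 and 2017 RPKM at 6 h, 1446, 1389 and 1446 RPKM at 24 h and 1199, 1304 and 1202 RPKM in untreated cells. The 6 h libraries were the highest for both genes, and the 24 h libraries lay above all untreated ones. Immunoglobulin constant genes resemble each other, so the division of reads between them is uncertain.

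Histone genes, which supply chromatin during replication, mostly fell. Of 21 members tested, 16 fell and 1 rose, HIST2H3D, with a median of -0.36, and at 6 h 17 had been higher than in untreated cells. H2AFX, the variant phosphorylated at DNA breaks, had 169.5, 185 and 203 RPKM at 6 h, 99.3, 92.2 and 96.8 RPKM at 24 h and 78.7, 67.4 and 67.6 RPKM in untreated cells. It fell by 0.95 (SE 0.06, adjusted p = 2.7e-05) and stayed above untreated cells by 0.43 (adjusted p = 0.013). HIST1H3B, a histone H3 gene, had 1128, 1182 and 1223 RPKM at 6 h, 744, 663 and 698 RPKM at 24 h and 691, 698 and 861 RPKM in untreated cells. The untreated and 24 h values overlapped. Many histone genes of the same type resemble each other, so the division of reads between them is uncertain.

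Genes for DNA replication and the G1 to S transition fell more often than they rose. Of 32 replication genes tested, 18 fell and 1 rose, RFC3, with a median of -0.17, and with an equal sum of RPKM 10 fell. At 6 h 26 of them had been higher than in untreated cells, and at 24 h 14 were. CDC45, part of the replicative helicase, had 42.0, 41.0 and 42.0 RPKM at 6 h, 29.7, 29.8 and 30.6 RPKM at 24 h and 25.2, 25.7 and 27.4 RPKM in untreated cells. RRM2, a subunit of ribonucleotide reductase, had 201, 205 and 219.6 RPKM at 6 h, 150.3, 160.4 and 156 RPKM at 24 h and 135, 128 and 125 RPKM in untreated cells. For both genes the 24 h libraries lay between the other groups without overlap. Of the helicase loading genes, MCM4, MCM7 and MCM10 fell, while MCM2, MCM3, MCM5 and MCM6 did not pass the test and had differences between -0.04 and 0.09. TTTNGCGC, an E2F-like motif, was held by 7 of the 28 replication genes with a window, against 1.54% of all windows and 2.59% of those of tested coding genes. Of 17 genes for G1 cyclins, CDKs and CDK inhibitors, 7 fell and 1 rose, with a median of -0.12, and with an equal sum of RPKM 4 fell. CCND3, the D-type cyclin of germinal center cells, had 43.6, 43.1 and 43.2 RPKM at 6 h, 29.5, 30.6 and 31.2 RPKM at 24 h and 25.9, 27.5 and 29.1 RPKM in untreated cells. The gene that rose was CDKN1B, the CDK inhibitor p27, which had 2.39, 2.79 and 2.48 RPKM at 6 h, 4.48, 4.66 and 4.07 RPKM at 24 h and 5.17, 4.39 and 4.91 RPKM in untreated cells.

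Genes of mitosis went mainly the other way. Of 30 tested, 14 rose and 4 fell, with a median of 0.05, and at 6 h 12 had been lower and 9 higher than in untreated cells. CCNB1, the cyclin that drives entry into mitosis, had 63.0, 60.6 and 61.0 RPKM at 6 h, 103, 111 and 101 RPKM at 24 h and 112, 103 and 100 RPKM in untreated cells. It rose by 0.77 ± 0.04 (adjusted p = 1.9e-05), to values that overlapped those of untreated cells. AURKA, a kinase of the spindle poles, had 26.6, 25.6 and 26.5 RPKM at 6 h, 35.3, 37.9 and 36.7 RPKM at 24 h and 34.1, 34.8 and 36.4 RPKM in untreated cells. CDC20, which activates the anaphase-promoting complex, had 45.2, 47.9 and 47.7 RPKM at 6 h and 64.7, 66.3 and 64.2 RPKM at 24 h, and PLK1, a mitotic kinase, rose by 0.33. The 4 members that fell were MKI67, NUSAP1, FOXM1 and AURKB. MKI67, the proliferation antigen Ki-67, had 26.4, 26.2 and 27.9 RPKM at 6 h, 18.9, 20.4 and 21.2 RPKM at 24 h and 18.5, 19.0 and 19.6 RPKM in untreated cells. TTTGAA, the core of the cell cycle homology region, was held by 14 of the 24 members with a window, against 13.6% of all windows and 8.42% of those of tested coding genes. The CDC20 window holds TTTGAA and CCAAT matches on either strand, in capitals (plus strand, 250 to 51 bases before the start, chr1:43358731-43358930).
CDC20: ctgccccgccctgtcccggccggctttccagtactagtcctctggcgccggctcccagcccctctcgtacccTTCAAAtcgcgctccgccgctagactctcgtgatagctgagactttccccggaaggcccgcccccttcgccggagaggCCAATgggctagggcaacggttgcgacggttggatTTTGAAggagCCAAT

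Of 12 MHC class II genes tested, 10 rose and 0 fell, with a median of 0.29. All 12 had been lower than in untreated cells at 6 h (median -0.48), and 7 were lower at 24 h (median -0.24). CIITA, the coactivator that switches the class II genes on, had 31.1, 30.4 and 28.4 RPKM at 6 h, 40.1, 42.4 and 42.9 RPKM at 24 h and 50.2, 44.5 and 49.6 RPKM in untreated cells. It rose by 0.47 ± 0.05 (adjusted p = 0.00023), and the 3 groups were apart. HLA-DQA1 had 17.3, 15.1 and 15.3 RPKM at 6 h, 22.1, 22.1 and 20.4 RPKM at 24 h and 31.6, 29.5 and 28.4 RPKM in untreated cells, and HLA-DRB1 had 58.4, 56.9 and 52.7 RPKM at 6 h, 77.6, 69.5 and 70.6 RPKM at 24 h and 93.2, 107 and 90.0 RPKM in untreated cells. Both α and β chain genes thus stood between the 6 h and the untreated level. The members that did not pass the test were CD74, the invariant chain (0.04, adjusted p = 0.47), and HLA-DMB, a peptide exchange factor (0.09, adjusted p = 0.16). HLA genes are polymorphic and similar to each other, so their reads may be divided wrongly, and the call of HLA-DQB1 was lost under some settings. Of the 10 members with a window, 9 held CCAAT, against 33.0% of all windows and 36.7% of those of tested coding genes. A CCAAT box is part of the class II promoter, and whether these matches lie at its place was not tested. The window of HLA-DQA1 holds 2 matches on either strand, in capitals (plus strand, 250 to 51 bases before the start, chr6:32637156-32637355).
HLA-DQA1: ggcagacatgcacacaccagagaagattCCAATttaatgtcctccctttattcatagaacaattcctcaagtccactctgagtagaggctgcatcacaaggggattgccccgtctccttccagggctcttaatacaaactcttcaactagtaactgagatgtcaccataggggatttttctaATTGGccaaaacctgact

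Genes of B cell receptor signalling rose more often than they fell, with 13 higher, 2 lower and a median of 0.18 over 23 tested. Over all genes tested, 12.7% were higher and 10.4% lower. The rises covered kinases (BTK 0.32, LYN 0.23 and SYK 0.11 on the log2 scale), the adaptor PIK3AP1 (0.25) and the phospholipase PLCG2 (0.24). The 2 genes that fell encode the signalling chains of the receptor itself. CD79B had 635, 624 and 575 RPKM at 6 h, 495, 483 and 479.8 RPKM at 24 h and 348, 374 and 405 RPKM in untreated cells, and CD79A fell by 0.30 on the log2 scale. MS4A1, the surface antigen CD20, had 182, 189 and 178 RPKM at 6 h, 237, 248 and 246 RPKM at 24 h and 291, 292 and 265 RPKM in untreated cells.

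Downstream of the receptor, feedback genes of ERK rose in part. Of 7 tested, 3 rose and 1 fell, with a median of 0.44, the number that rose ran from 1 to 4 over the other settings, and 3 were still lower than in untreated cells at 24 h. DUSP2, a phosphatase of MAP kinases, had 100.2, 100 and 90.1 RPKM at 6 h, 165, 159 and 154 RPKM at 24 h and 257, 228 and 227 RPKM in untreated cells. DUSP5, a phosphatase of ERK, had 0.775, 0.582 and 0.641 RPKM at 6 h, 1.51, 1.35 and 1.32 RPKM at 24 h and 4.21, 3.68 and 3.73 RPKM in untreated cells. Both genes were lowest at 6 h and did not reach the untreated range at 24 h. SPRED2, an inhibitor of RAF activation, was the member that fell, by 0.50. Of 8 AP-1 genes 1 rose, BATF, whose call was lost under some settings. Of 15 other immediate early genes 3 rose (EGR2, BTG2 and BTG1) and 2 fell (SRF and KLF10). Over all genes tested, 12.7% were higher and 10.4% lower.

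A list of chemokines and receptors included 5 genes that rose and 3 that fell among 11 tested, with a median of 0.57. Over all genes tested, 12.7% were higher and 10.4% lower. The list also held S1PR2, the sphingosine phosphate receptor, which is 1 of the 3 that fell. The number that rose ran from 3 to 6 over the other settings. CCL4 had 0.413, 0.369 and 0.660 RPKM at 6 h, 2.25, 2.28 and 1.79 RPKM at 24 h and 11.2, 11.3 and 7.08 RPKM in untreated cells, and it shares sequence with CCL4L2, which rose by 0.88. CCR6, the receptor for CCL20, had 6.88, 5.96 and 5.47 RPKM at 6 h, 11.7, 10.5 and 11.3 RPKM at 24 h and 11.6, 11.6 and 10.9 RPKM in untreated cells. CCR6 thus overlapped the untreated values at 24 h, whereas CCL4 did not. CXCR5, the receptor for follicles, did not pass the test (0.11, adjusted p = 0.35).

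Of 21 NF-κB targets and feedback genes tested, 5 rose and 3 fell from 6 to 24 h (median 0.10), beside 12.7% and 10.4% of all genes tested. Against untreated cells, 11 were lower and 5 higher at 6 h, and 10 were lower and 1 higher at 24 h. BCL2A1, a survival protein of the BCL2 family, had 19.1, 20.7 and 18.2 RPKM at 6 h, 29.1, 25.4 and 25.2 RPKM at 24 h and 52.7, 42.4 and 41.3 RPKM in untreated cells. TRAF1, an adaptor of TNF receptors, had 12.9, 14.96 and 12.5 RPKM at 6 h, 19.0, 18.5 and 17.4 RPKM at 24 h and 27.5, 24.9 and 24.6 RPKM in untreated cells. CD83, an activation marker, had 56.4, 60.4 and 59.2 RPKM at 6 h, 64.7, 65.2 and 61.1 RPKM at 24 h and 127, 117 and 112 RPKM in untreated cells. The rise of CD83 between the times did not pass the test (0.12, adjusted p = 0.068), and TNFAIP3, the deubiquitinase A20, behaved likewise (0.27, adjusted p = 0.092, and -0.77 against untreated cells at 24 h, adjusted p = 0.0075).

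In the BCL2 family 5 of 14 rose and 1 fell, with a median of 0.03 whose sign turned without either of 2 single libraries. BCL2L11, the death activator BIM, had 14.6, 14.7 and 13.2 RPKM at 6 h, 21.3, 21.0 and 22.2 RPKM at 24 h and 26.2, 21.7 and 24.9 RPKM in untreated cells. Of 13 checkpoint and adhesion genes, 5 rose and 1 fell (median 0.13). Both lists stand beside 12.7% higher and 10.4% lower over all genes tested. ITGA4, the α4 integrin, had 29.6, 29.8 and 29.1 RPKM at 6 h, 45.4, 44.6 and 46.5 RPKM at 24 h and 52.5, 49.95 and 53.7 RPKM in untreated cells. SLAMF1, a self-binding receptor of lymphocytes, had 0.310, 0.285 and 0.269 RPKM at 6 h and 1.08, 1.04 and 1.70 RPKM at 24 h, within an untreated range of 0.981 to 2.31 RPKM.

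Factors of B cell identity split, with 5 higher, 8 lower and a median of -0.01 over 23 tested. With an equal sum of RPKM 5 were higher and 3 lower, with a median of 0.05, and the sign also turned without 24 h replicate 1. EBF1, a founding factor of the lineage, had 7.92, 6.39 and 7.22 RPKM at 6 h, 10.7, 11.4 and 10.5 RPKM at 24 h and 10.9, 10.6 and 12.6 RPKM in untreated cells. BCL6, the repressor that defines the germinal center, had 74.2, 78.1 and 77.9 RPKM at 6 h, 55.7, 62.4 and 60.0 RPKM at 24 h and 54.5, 55.1 and 59.9 RPKM in untreated cells. These genes therefore moved in opposite directions, each to values that overlapped the untreated ones. PAX5, another lineage factor, did not pass the test (-0.0028, adjusted p = 0.98). Among E proteins and their inhibitors 3 rose and 1 fell of 7. Both lists stand beside 12.7% higher and 10.4% lower over all genes tested. TCF4 had 23.0, 23.6 and 23.1 RPKM at 6 h and 31.7, 31.4 and 30.7 RPKM at 24 h, while TCF3 fell from 162, 166 and 166 RPKM to 136, 149.5 and 143 RPKM. ID3, an inhibitor of E proteins, had 123, 123 and 129 RPKM at 6 h, 136, 133 and 134 RPKM at 24 h and 115, 112 and 118 RPKM in untreated cells. The small rise of ID3 passed the test (0.10 ± 0.03, adjusted p = 0.046), and the calls of ID3 and TCF3 were lost under 10 settings and 1 setting of 16.

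Ribosome production is a classical program of MYC. Of 40 biogenesis factors 13 rose and 1 fell, NHP2, beside 12.7% and 10.4% of all genes tested. The median was 0.11, and 26 did not pass the test. The number that rose ran from 8 to 19 over the other settings. GNL3, the nucleolar GTPase nucleostemin, had 157, 159.9 and 159 RPKM at 6 h, 182, 191 and 187 RPKM at 24 h and 178, 169 and 169.7 RPKM in untreated cells. The nucleolar proteins NCL, FBL and NOP56 did not pass the test. Of 78 cytosolic ribosomal protein genes, 13 rose and 4 fell, beside 12.7% and 10.4% of all genes tested, and the median was 0.04. These counts depended on scaling, with 30 rises and 3 falls after quantile normalization and 25 and 0 with an equal sum of RPKM. RPL12 had 1105, 1102 and 1073 RPKM at 6 h, 1317, 1274 and 1348 RPKM at 24 h and 1369, 1313 and 1373 RPKM in untreated cells.

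Amino acid and stress genes of ATF4 rose more often than they fell, with 12 higher and 1 lower of 24 tested. Over all genes tested, 12.7% were higher and 10.4% lower. The median of the list was 0.18, after 14 members had been lower than in untreated cells at 6 h. SLC7A11, the cystine transporter, had 3.36, 3.37 and 3.15 RPKM at 6 h, 5.67, 5.63 and 5.86 RPKM at 24 h and 6.69, 6.47 and 6.40 RPKM in untreated cells. SLC38A2, a glutamine transporter, had 3.07, 3.01 and 2.78 RPKM at 6 h, 4.65, 4.48 and 4.57 RPKM at 24 h and 7.32, 6.68 and 6.67 RPKM in untreated cells. ASNS, asparagine synthetase, had 147, 146 and 138 RPKM at 6 h, 159, 162 and 164 RPKM at 24 h and 174, 156 and 166 RPKM in untreated cells, a rise of 0.17 ± 0.03 (adjusted p = 0.0076) whose call was lost without the variance trend (adjusted p = 0.056). ATF4 itself rose by 0.32.

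Of 27 glycolysis and HIF target genes, 13 fell and 1 rose, with a median of -0.13. With an equal sum of RPKM 5 fell and 2 rose (median -0.06). TXNIP, a brake on glucose uptake, belongs to the list of autophagy, lysosome and nutrient stress genes and rose. TXNIP had 5.25, 5.44 and 5.97 RPKM at 6 h, 8.62, 10.9 and 10.7 RPKM at 24 h and 9.84, 9.75 and 11.2 RPKM in untreated cells. ALDOC, an aldolase, had 24.5, 22.9 and 22.4 RPKM at 6 h, 15.3, 15 and 13.02 RPKM at 24 h and 12.8, 13.8 and 13.1 RPKM in untreated cells. Polyamine genes gave 2 rises and 2 falls of 11, beside 12.7% and 10.4% of all genes tested. ODC1, the first enzyme of polyamine synthesis and a MYC target, had 817, 856 and 845 RPKM at 6 h, 703, 713 and 705 RPKM at 24 h and 579.6, 589 and 575 RPKM in untreated cells. SAT1, which breaks polyamines down, had 34.1, 36.3 and 37.9 RPKM at 6 h, 44.4, 42.0 and 43.0 RPKM at 24 h and 51.1, 53.8 and 47.9 RPKM in untreated cells. ODC1 and SAT1 thus moved in opposite directions, and both remained apart from untreated cells. Of 24 nucleotide synthesis genes 5 rose and 4 fell. Of 32 nuclear genes of oxidative phosphorylation 5 rose and 6 fell, against 8 and 1 with an equal sum of RPKM. The counts as deposited also stand beside 12.7% and 10.4% of all genes tested.

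Of the 13 mRNAs of the mitochondrial genome, 11 were lower than in untreated cells at 6 h (median -0.55) and 6 at 24 h (median -0.50). Their summed RPKM was 1775 to 1976 at 6 h, 1572 to 1992 at 24 h and 2257 to 2624 in untreated cells. From 6 to 24 h 2 rose and 2 fell, beside 12.7% and 10.4% of all genes tested. MT-CO2, a subunit of cytochrome oxidase, had 223, 215 and 229 RPKM at 6 h, 176, 177 and 202 RPKM at 24 h and 284, 294 and 258 RPKM in untreated cells. The calls of MT-CO2 and of the other 3 between the times were lost under some settings.

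The medians of 6 further lists lay between -0.08 and 0.04 on the log2 scale, against 0.012 over all genes tested, of which 23.0% were called. Interferon-stimulated genes gave 2 rises and 1 fall of 21, p53 targets 3 and 2 of 19, heat shock proteins 5 and 2 of 17, autophagy and lysosome genes 2 and 4 of 15, antioxidant genes of NRF2 5 and 3 of 16, and clock genes 0 and 1 of 10. These counts include shares above that of all genes, such as 7 of 17 heat shock proteins and 8 of 16 antioxidant genes. CTSD, the lysosomal protease cathepsin D, had 14.1, 14.0 and 12.3 RPKM at 6 h, 8.59, 9.64 and 8.85 RPKM at 24 h and 7.69, 7.21 and 7.89 RPKM in untreated cells.

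**Figure D3:**
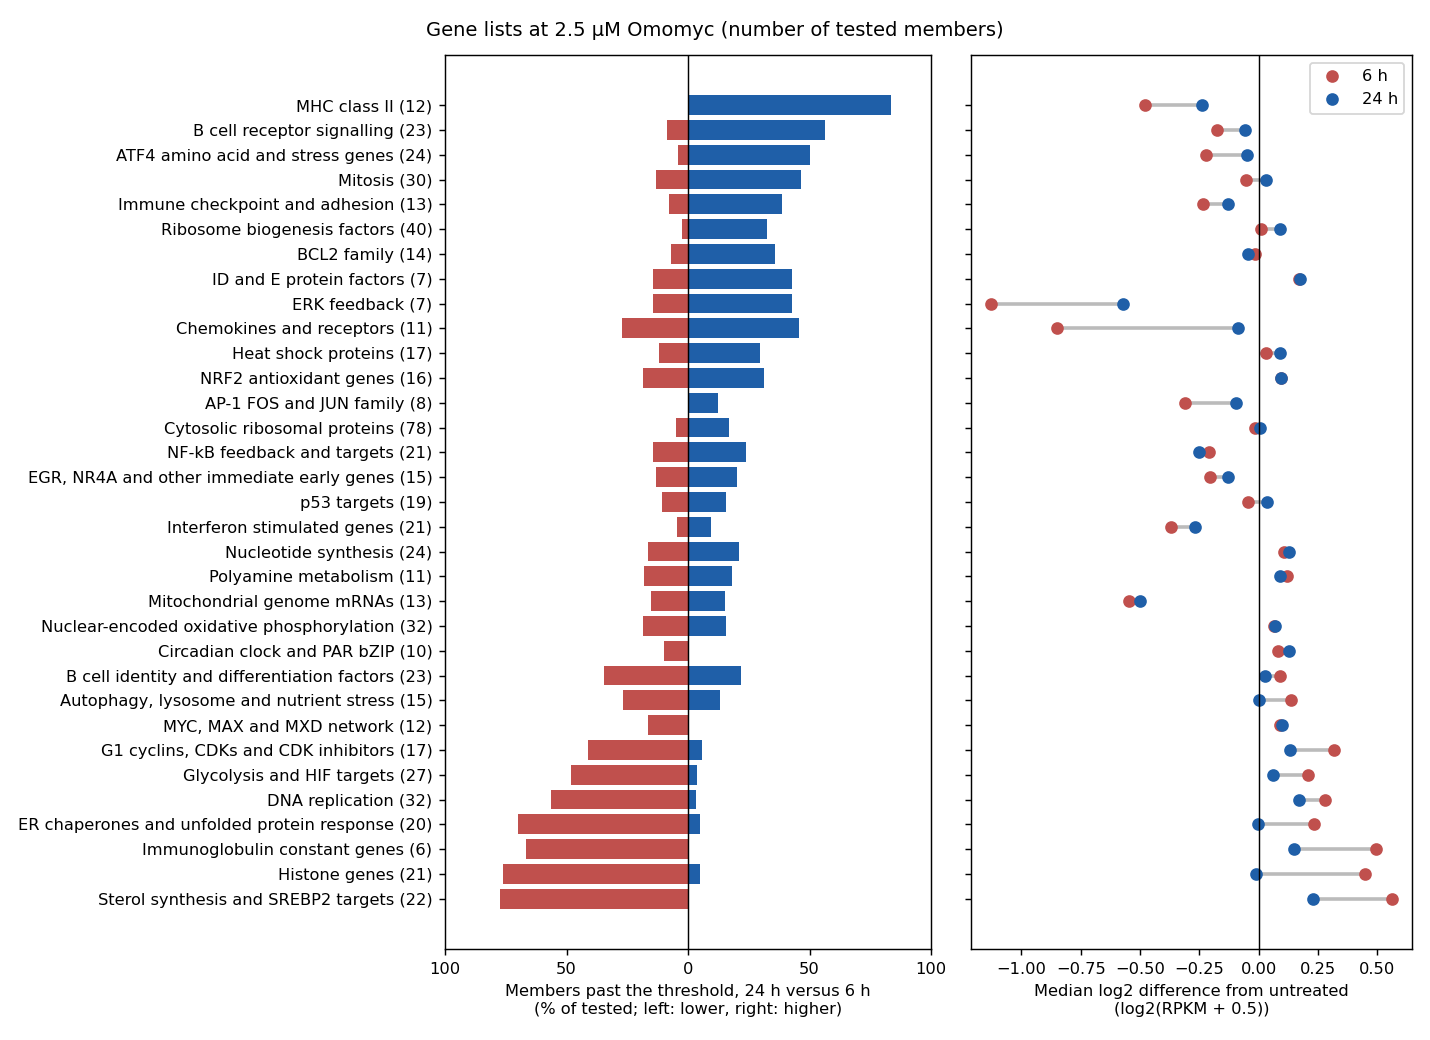
Left, the percentage of tested members of each list that passed the test between 24 and 6 h of 2.5 μM Omomyc, lower to the left and higher to the right, with the number tested in brackets, and right, the median log2 difference of the list from untreated cells (log2(RPKM + 0.5)) at 6 h and at 24 h. MHC class II is at the top with 10 of 12 higher, sterol synthesis is at the bottom with 17 of 22 lower, and for these 2 lists the 24 h median is closer to 0 than the 6 h median.

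The same time contrast at 500 nM Omomyc shares no library with that at 2.5 μM. At 500 nM 3462 genes (25.4%) differed between 24 and 6 h, 1622 (11.9%) higher and 1840 (13.5%) lower. Over 13362 genes tested at both doses the log2 differences correlated with a Pearson r of 0.653 and a Spearman rho of 0.652 across genes, which are not independent replicates. Of genes called at 2.5 μM, 2969 of 3114 (95.3%) had the same sign at 500 nM. Genes called at both doses numbered 1933, which is 62.1% of the calls at 2.5 μM and 56.4% of those at 500 nM, and 9 of these had opposite signs. The sterol list gave 17 falls at 2.5 μM and 15 at 500 nM, the histone list 16 and 17, the ER chaperone list 14 at each dose, and the MHC class II list 10 rises at 2.5 μM and 12 at 500 nM. Interferon-stimulated genes gave 2 rises of 21 at 2.5 μM and 14 at 500 nM, and the median of the list's interaction was -0.53, although 0 of its members passed the interaction test.

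The difference between the doses in the change from 6 to 24 h was tested as an interaction. It passed for 53 of 13588 genes (0.390%), 18 with a more positive change at 2.5 μM (0.132%) and 35 with a more negative one (0.258%). Without replicate 2 of 500 nM at 6 h only 2 genes were called, and without replicate 3 of 500 nM at 24 h 80 were. Of 51 of these genes tested at each dose, 35 had the same sign at both, and in 34 of the 35 the change was smaller at 2.5 μM, the exception being NAPSA. CCL3 had 2.21, 1.35 and 2.33 RPKM at 6 h and 29.7, 18.3 and 19.1 RPKM at 24 h of 500 nM, with 1 library above and 2 within the untreated range, whereas at 2.5 μM the 24 h values were 4.91, 4.33 and 4.12 RPKM. Its interaction was -1.49 (adjusted p = 0.035). FCRL5 had 22.1, 16.8 and 16.6 RPKM at 24 h of 500 nM, all above the highest untreated library, and an interaction of -1.05 (adjusted p = 0.047). EGR2 had 40.4, 33.2 and 33.3 RPKM at 24 h of 500 nM, above all untreated libraries, and an interaction of -0.60 (adjusted p = 0.038). CCL1, a chemokine chosen after its values were seen, had 0, 0.105 and 0.0413 RPKM at 6 h and 1.11, 0.993 and 1.08 RPKM at 24 h of 2.5 μM, against 9.72, 8.46 and 8.79 RPKM at 24 h of 500 nM and 8.53, 4.48 and 6.92 RPKM in untreated cells. CD274 rose at 500 nM from between 2.24 and 3.01 RPKM to between 8.85 and 12.2 RPKM, and its interaction did not pass the test (-0.59, adjusted p = 0.39). MYC had 136, 146 and 149 RPKM at 6 h and 140.1, 152 and 139.7 RPKM at 24 h of 500 nM, and its interaction did not pass either (-0.08, adjusted p = 0.67).

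**Figure D4:**
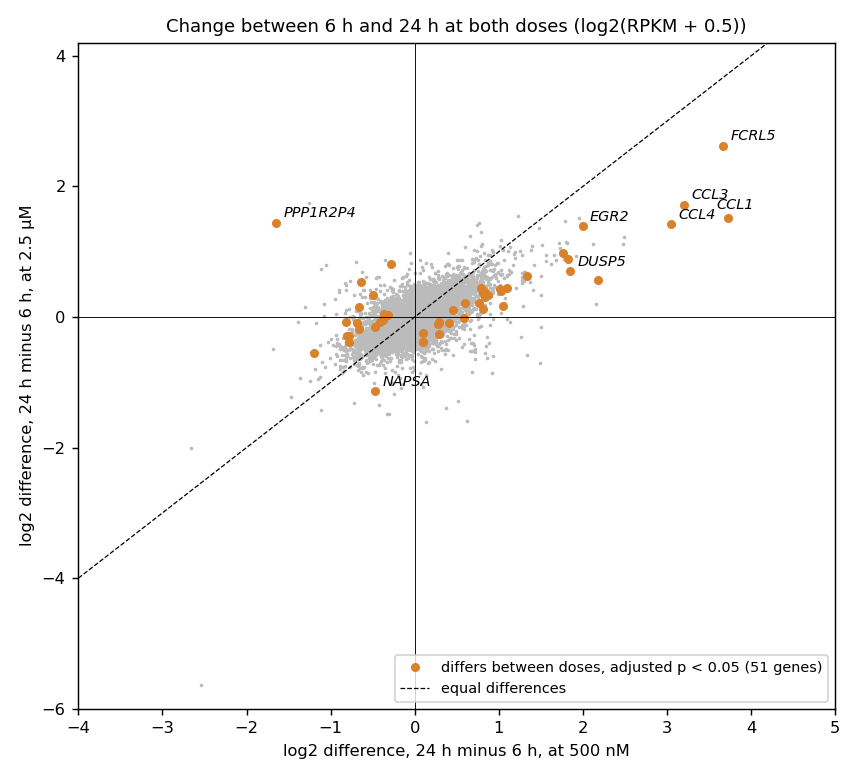
Log2 difference between 24 and 6 h (log2(RPKM + 0.5)) at 500 nM (horizontal) and at 2.5 μM Omomyc (vertical) for 13362 genes, with the line of equal differences dashed and the 51 genes of the interaction tested at both doses in orange. FCRL5, CCL3, CCL4, EGR2, DUSP5 and CCL1 lie to the right of 0 and below the line, NAPSA lies below 0 and below the line, and PPP1R2P4, a processed pseudogene, has opposite signs.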

How the data were processed

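RNA-Seq of Ramos cells was analysed in 3 libraries per group, grouped by the labels. The authors deposited 1 table of RPKM for 57992 genes, named by Ensembl identifier, in 30 libraries. The submitters' processing notes name RSEM, without a version. The aligner, genome build, annotation and strand setting of the counting are not given in the sources used here, so reads of genes that overlap on opposite strands may not have been separated. The values are fractional and depth is unknown, so no count test was run. In such values abundant structural RNAs share the scale with mRNA, so a change in them moves all other genes. GENCODE release names matched 57388 genes, and 604 had no match. The table holds no columns of the authors' own comparisons.

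Log2(RPKM + 0.5) was fitted with limma 3.58.1 in R 4.3.3 (lmFit, eBayes with a trend) to the libraries of each comparison, keeping genes whose mean RPKM reached 0.5, with Benjamini-Hochberg adjustment over all genes tested and a threshold of 0.05. Medians of lists are of log2 differences. The steps were tested on simulated data. The gene lists, members and tests were chosen with earlier results of these data known. Genes named are the 12 largest rises and 12 largest falls among coding genes past the threshold with a mean RPKM of at least 2 and no overlap between the groups, the 3 largest of each among other gene types, up to 4 members per list with the largest change past the threshold, and MYC, MAX, ASNS, SAT1, ID3, EGR2 and CD274. Further members are named to describe a list and were chosen after their values were seen. Alternatives were other pseudocounts, filters, scalings, thresholds and variance models, the replicate number as a block, all 5 Ramos groups in one fit, and leaving out each library in turn. Promoter windows came from a RefSeq table for GRCh38.p14, with 250 bases before the start. Some genes of these lists are not reported here.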

Additional observations from a re-analysis of the deposited data

Results flagged for a closer look

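For 11 of the named genes, the change from 6 to 24 h differed between 2.5 μM and 500 nM Omomyc by limma's interaction term. The values are the log2 change at 2.5 μM minus that at 500 nM. Among genes that rose at both doses and rose less at 2.5 μM, the value was -1.63 for CCL4 (adjusted p = 0.034), -1.49 for CCL3 (adjusted p = 0.035), -1.15 for DUSP5 (adjusted p = 0.046), -1.05 for FCRL5 (adjusted p = 0.047), -0.64 for BCL2A1 (adjusted p = 0.035), -0.60 for EGR2 (adjusted p = 0.038), -0.58 for HLA-DQA1 (adjusted p = 0.049) and -0.44 for HLA-DRB1 (adjusted p = 0.048). BCL2A1 had 26.9, 24.8 and 23.3 RPKM at 6 h and 60.7, 51.4 and 49.8 RPKM at 24 h of 500 nM, against 29.1, 25.4 and 25.2 RPKM at 24 h of 2.5 μM. DUSP5 had 4.80, 3.18 and 3.83 RPKM at 24 h of 500 nM, against 1.51, 1.35 and 1.32 RPKM at 24 h of 2.5 μM. For these genes all 24 h libraries of 2.5 μM lay below all 24 h libraries of 500 nM.

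TYMS, thymidylate synthase, fell at both doses and fell less at 2.5 μM, with a value of 0.39 (adjusted p = 0.047). It had 28.6, 33.1 and 33.5 RPKM at 24 h of 500 nM and 42.8, 46.1 and 45.8 RPKM at 24 h of 2.5 μM, and it overlaps ENOSF1 and TYMSOS. NAPSA fell more at 2.5 μM, with a value of -0.67 (adjusted p = 0.038). PPP1R2P4, a processed pseudogene, had 3.09 (adjusted p = 0.045) and changed in opposite directions, with 1.79, 3.63 and 0.603 RPKM at 6 h and 4.69, 4.599 and 7.47 RPKM at 24 h of 2.5 μM, and with 4.94, 6.22 and 8.44 RPKM at 6 h and 0.747, 2.54 and 2.31 RPKM at 24 h of 500 nM. The call of PPP1R2P4 between the times at 2.5 μM was lost under 5 of 16 settings. The pseudogene resembles its parent gene, so the division of reads between them is uncertain. The interaction calls of this section are close to the threshold, and 2 genes in all passed the interaction without replicate 2 of 500 nM at 6 h.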

How the results depend on the processing

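None of the called differences of the 144 genes named by the rule changed sign under the settings tried. Counts of calls moved by over 1.5 times under some of these settings and by less under others. With an absolute log2 difference of at least 1 as well, 24 h versus 6 h at 2.5 μM kept 47 calls, 6 h versus untreated 148, 24 h versus untreated 21, the 500 nM contrast 117 and the interaction 11. With an adjusted p under 0.01 the counts were 1429, 1883, 68, 1731 and 2. With no filter on low values they were 2040 for 24 h versus 6 h, 84 for 24 h versus untreated, 2307 at 500 nM and 2 for the interaction. The 24 h versus untreated count was 346 with median-ratio scaling, 323 with quantile normalization, 5365 with an equal sum of RPKM, 24 without the variance trend and 1249 with all 5 groups in one fit, and the share of higher genes was 43.4%, 44.3% and 97.4% under the scalings, against 71.6%. At 6 h versus untreated this share was 61.8%, and 51.5%, 50.1% and 85.2% under the same scalings. The interaction count was 35 with a pseudocount of 0.1, 15 with an equal sum of RPKM and 8 without the trend. Leaving out each library in turn gave 2208 to 2502 calls for 24 h versus 6 h, 2446 to 3703 for 6 h versus untreated, 60 to 929 for 24 h versus untreated, 2256 to 2944 at 500 nM and 2 to 80 for the interaction. The causes were not tested. Same-numbered libraries of 24 and 6 h at 2.5 μM showed no shared deviation, with correlations of 0.0148, -0.0837 and 0.0356. These values cannot settle whether the libraries were paired by culture, which the sources used here do not give. With the replicate block the counts were 2890 for 24 h versus 6 h, 3099 for 6 h versus untreated, 197 for 24 h versus untreated and 3216 at 500 nM. Of 144 named genes, 39 lost their call under at least 1 setting. The number of genes that deviated at 6 h and returned fully or in part ranged from 1174 with an equal sum of RPKM to 2201 with median-ratio scaling. Genes called on 1 side of untreated cells at both times numbered from 21 without the variance trend to 3039 with an equal sum of RPKM, and genes called in 1 direction at 24 h against both other groups from 2 to 1164 under the same settings.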

Other observations

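A few genes stayed or moved away from untreated cells at 24 h. They were chosen after their values were seen, and counts of such genes depend on single libraries. IL23A, a subunit of interleukin 23, had 7.04, 5.58 and 6.14 RPKM at 6 h, 6.84, 6.99 and 7.28 RPKM at 24 h and 15, 14.3 and 12.03 RPKM in untreated cells. IL2RA, the α chain of the interleukin 2 receptor, had 3.52, 4.38 and 3.94 RPKM at 6 h, 2.35, 3.10 and 2.54 RPKM at 24 h and 4.02, 6.2 and 4.27 RPKM in untreated cells. FCER2, the low-affinity IgE receptor CD23, had 8.95, 9.59 and 7.33 RPKM at 6 h, 6.45, 5.88 and 7.23 RPKM at 24 h and 10.2, 9.54 and 9.39 RPKM in untreated cells. FAM129C, a B cell protein, had 48.9, 52.4 and 48.8 RPKM at 6 h, 69.6, 70.0 and 66.7 RPKM at 24 h and 52.2, 54.0 and 54.1 RPKM in untreated cells. For IL2RA and FCER2 the 24 h libraries were the lowest of the 3 groups, and for FAM129C they were the highest.

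Several pseudogenes and repeat-like RNAs named by the rule had uneven values between replicates. H3F3AP4 was listed near 0 in all 3 libraries of 24 h, at 37.4, 28.0 and 13.9 RPKM at 6 h and at 15.3, 38.0 and 4.12 RPKM in untreated cells. RN7SL5P had 7.24, 24.4 and 20.0 RPKM at 6 h, 5.34, 6.07 and 6.65 RPKM at 24 h and 30.9, 10.9 and 3.53 RPKM in untreated cells. SLC2A3P1 had 8.38, 5.88 and 7.16 RPKM at 6 h and 3.54, 2.14 and 4.42 RPKM at 24 h. SEC24AP1 had 1.23, 1.59 and 1.90 RPKM at 6 h and 4.33, 3.73 and 4.49 RPKM at 24 h. These genes resemble their parent genes, so the division of reads between them is uncertain, and the calls of RN7SL5P and SLC2A3P1 were lost under some settings.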
